A study of Mus musculus with 6 samples.

Results

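The 42 genes described here encode cytosolic and mitochondrial chaperones and the sensors, transcription factors and targets of the unfolded protein response. They were taken by symbol, from GENCODE M21, out of 48709 gene identifiers, 21 of them as chaperone genes and 21 as endoplasmic reticulum (ER) stress genes. Bulk RNA sequencing of polyadenylated RNA had counted reads per gene in whole cerebella of C57BL/6J mice aged 40 weeks. The wild-type group held 3 samples. The knock-in group, labelled Kihet, held 3 samples with an SCA7 knock-in genotype of 140Q/5Q, read here as 140 glutamines from one Atxn7 allele and 5 from the other. SCA7 is spinocerebellar ataxia type 7, a polyglutamine disease of cerebellum and retina. The labels do not say whether each sample is a separate animal, so p-values measure only the spread between these samples, which may be technical.

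Chaperones bind unfolded segments of other proteins and use cycles of ATP binding, helped by J-domain partners and nucleotide exchange factors, to let them fold or to pass them on for degradation. When unfolded protein builds up in the cytosol, the transcription factor HSF1 is released from chaperones and switches on heat shock genes. In the ER, the sensors PERK, IRE1 and ATF6 do the same for ER chaperones and for the degradation pathway that removes misfolded ER protein. PERK, like other kinases of the initiation factor eIF2, also starts the integrated stress response through ATF4. Expanded polyglutamine proteins aggregate, and chaperones are known modifiers of their toxicity in models of these diseases. Purkinje cells, the output neurons of the cerebellar cortex, hold an unusually extended ER.

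Libraries held between 34630391 and 49127673 counts, and the 42 genes took between 0.712% and 0.743% of them. Markers of cerebellar cortex were abundant: Gabra6 of granule neurons lay between 706 and 913 CPM and Calb1 of Purkinje cells between 1003 and 1657 CPM. CPM is a count scaled to the TMM-adjusted size of its library, per 1e6. Libraries differed in marker lists of neighbouring tissue. Of 14 brainstem markers 8 passed the filter on low counts, and their mean log2 CPM ran from -0.38 to 0.95 in wild type and from 1.16 to 3.04 in knock-in. Over all 14 the summed level was 86.9 to 95.7 CPM in wild type and 76.6 to 136.6 CPM in knock-in. Hoxb6 and Hoxb8 were at 0 in every wild-type library. The 10 choroid plexus markers summed to between 891 and 2754 CPM in wild type and between 231 and 1858 CPM in knock-in, lowest in knock-in replicate 2.

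Among the differences were lower means of ER genes in knock-in, with Sel1l at 79.2%, Hsp90b1 at 79.7%, Calr at 83.5% and Hspa5 at 84.7% of the wild-type mean, and a higher mean of the HSP70 gene Hspa2, at 143%. Other genes that ER stress is known to induce were not all alike. Asns was at 85.5%, Trib3 at 88.2%, Pdia4 at 88.4% and Xbp1 at 90.9%. Ddit3, Herpud1, Dnajb9 and Ppp1r15a were at 98.1%, 99.1%, 100.7% and 112.4%. All 42 genes passed the filter on low counts, and none reached an adjusted p of 0.05 or less, the threshold for a call in edgeR's quasi-likelihood test. Over all 16699 genes tested the share called was 1.9%. At an unadjusted p under 0.05 there were 8 lower and 3 higher members, against 8.26% lower and 9.81% higher of all genes tested, 18.1% together. The higher count is near that background. The CPM of the groups did not overlap for 14 lower and 3 higher members, against 11.5% lower and 12.3% higher of all genes tested. The lower genes were mostly those of the ER, where 9 of 21 did not overlap and all 9 were lower. The 21 chaperone genes had 5 lower and 3 higher without overlap. DESeq2 called 3 members (7.14%), which were Hspa2, Hsp90b1 and Sel1l, and 5.59% of all genes tested. Without knock-in replicate 2 edgeR called Hsp90b1 and Sel1l (4.76% of the members) and 5.04% of all genes tested. Both shares of members are near those backgrounds. The count at an unadjusted p under 0.05 went from 11 to 6 without wild-type replicate 2, to 5 without knock-in replicate 1 and to 6 without knock-in replicate 3. With library size scaling in place of TMM it was 4 lower and 5 higher, and with offsets for GC content and length 12 lower and 1 higher.

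The median log2 fold change was -0.137 over the ER stress genes and -0.025 over the chaperone genes, beside 0.007 over all genes tested. The ER stress median was -0.081 without wild-type replicate 2, -0.083 without knock-in replicate 1 and -0.063 with library size scaling. The chaperone median was 0.049 with library size scaling, 0.003 without wild-type replicate 2, 0.017 without knock-in replicate 1 and -0.064 without knock-in replicate 3, and so had no stable sign. Of the 25 members with an estimate beyond 1 standard error of 0, 10 came over 1.5 times nearer to 0 when 1 library was left out: Cryab, Dnajb6, Hsf1, Hsp90ab1, Hspa1a, Pdia4, Pdia6, Ppp1r15a, Stub1 and Xbp1. The median standard error was 0.088 on that scale. For 37 of the 42 genes the 95% interval of the log2 fold change lay within a 1.5-fold change in either direction, as it did for 65.3% of all genes tested. The exceptions were Hspa2, Hspa1a, Hspa1b, Hspb1 and Trib3, 4 of which had a mean under 10 CPM. Counts of whole tissue cannot tell fewer cells of one type from less RNA per cell.

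**Figure D1:**
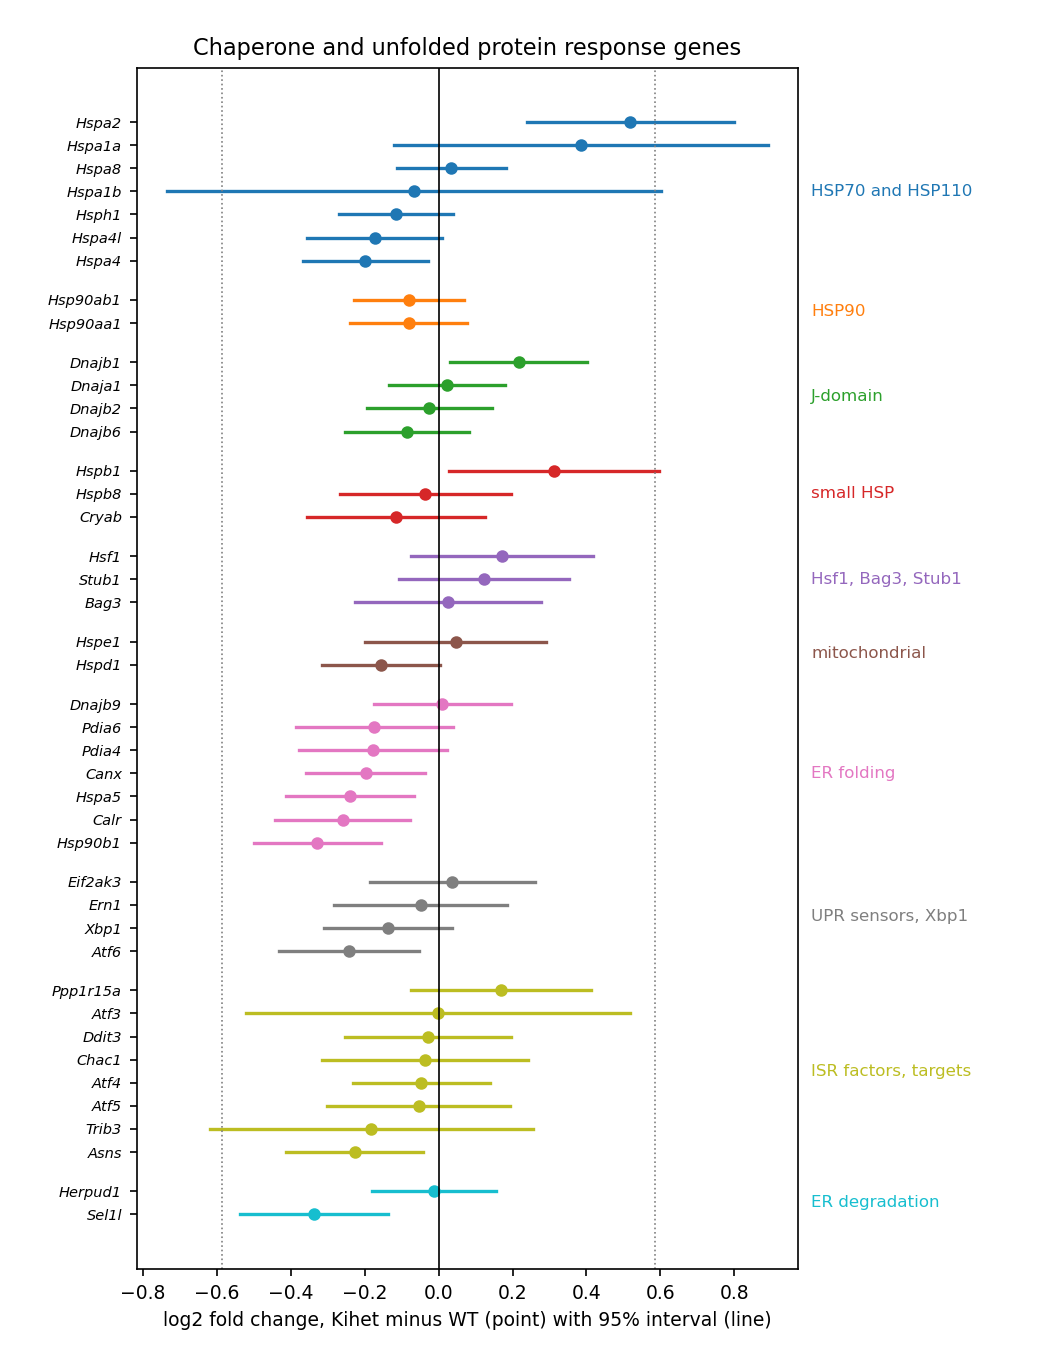
Log2 fold change of each of the 42 genes, knock-in minus wild type, as a point with its 95% interval as a line, grouped by role. Dotted lines mark a 1.5-fold change. Of the ER folding genes 6 of 7 points lie left of 0, from -0.17 for Pdia6 to -0.33 for Hsp90b1, and Hspa2 at 0.52 lies farthest right.

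Levels can be compared between genes as CPM per kilobase of exon, here as wild-type means. Hsp90ab1, the constitutive cytosolic HSP90, was highest at 502, followed by Hspa8, the constitutive cytosolic HSP70, at 176 and by Hsp90aa1, the other cytosolic HSP90, at 155. The next were the ER lectin chaperone gene Calr at 139.5 and the ER HSP90 gene Hsp90b1 at 103. The lowest were Hspa1b at 0.52, Hspa1a at 0.617, Atf3 at 0.978, Trib3 at 1.01 and Ern1 at 1.65. The first 4 of these low genes are induced by stress. In knock-in, Hsp90ab1 was at 475 and Hspa1b at 0.495 CPM per kilobase.

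**Figure D2:**
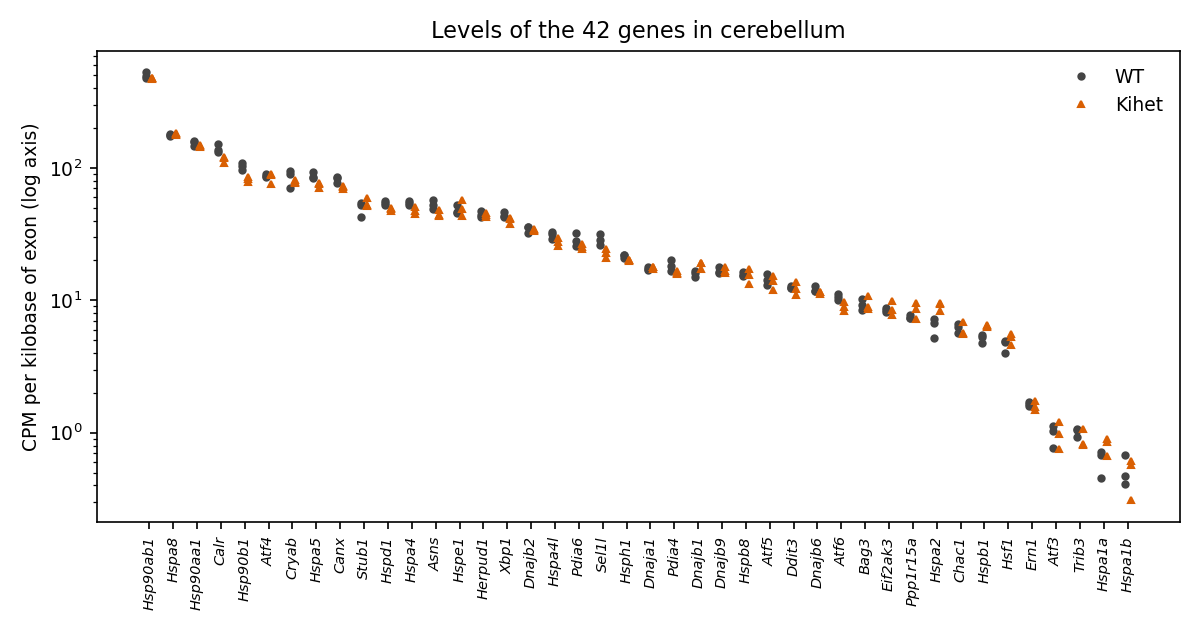
Level of each gene in every library, as CPM per kilobase of exon on a log axis, ordered by the mean of both groups. Circles are wild-type and triangles knock-in libraries. The levels span from Hsp90ab1, at a wild-type mean of 502, to Hspa1b, at a wild-type mean of 0.52, and the groups overlap for most genes.

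Among cytosolic HSP70 genes, Hspa8 (ENSMUSG00000015656, chr9:40800984-40810087, plus strand, build mm10) was the most abundant, with 744, 771 and 759 CPM in the wild-type libraries and 761, 781 and 786 CPM in the knock-in libraries. Its libraries overlapped and spread by at most 1.79% of the mean in each group. The log2 fold change was 0.03 ± 0.07 (SE), with a 95% interval of -0.11 to 0.18. Other genes match 87.6% of the Hspa8 transcript at 90% identity or more, the longest over 1962 bases at 94.14%, so its count is uncertain. The 3 of them that were tested had at most 0.796 CPM in wild type. The heat-inducible pair Hspa1a and Hspa1b were low in every library. Hspa1a had 1.35, 2.12 and 2.01 CPM in the wild-type libraries and 1.98, 2.66 and 2.51 CPM in the knock-in libraries. Hspa1b had 1.15, 1.91 and 1.32 CPM in the wild-type libraries and 0.866, 1.71 and 1.59 CPM in the knock-in libraries. Both were lowest in replicate 1 of each group, and the groups overlapped. Their log2 fold changes were 0.39 ± 0.23 (SE) and -0.07 ± 0.30 (SE), with adjusted p of 0.40 and 0.93 in edgeR. The 2 transcripts are 99.23% identical over 2201 bases, so reads of one could not always be told from reads of the other, and both counts are uncertain.

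The promoters of that pair show how alike the copies are. Both windows hold 1 match to the words used here for the heat shock element, GAANNTTC or TTCNNGAA, at the same distance from the start. Both strands were searched, and a match of letters does not show that HSF1 binds. These 48-base stretches come from RefSeq promoters on GRCm38.p6, 5′ to 3′ on the gene's strand, with the element in capitals:
Hspa1a, chr17:34972233-34972280, minus strand: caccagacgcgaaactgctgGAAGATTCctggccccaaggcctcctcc
Hspa1b, chr17:34959315-34959362, minus strand: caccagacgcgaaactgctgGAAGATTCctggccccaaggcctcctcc
The letters of the stretches are identical. A match to either word was found within 250 bases before the start in 14.5% of 27025 genes and in 12 of the 36 members with a promoter in the table. Of those 12, Eif2ak3, Atf5 and Asns are ER stress genes. The median log2 fold change of the 12 was -0.015, with 1 higher and 1 lower at an unadjusted p under 0.05. It was 0.006 over the other 1468 tested genes with a match.

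Hspa2 (ENSMUSG00000059970, chr12:76404176-76406938, plus strand), an HSP70 gene best known from spermatogenesis, had the largest difference of all 42 in either direction. It had 13.8, 17.7 and 19.0 CPM in the wild-type libraries and 25.0, 25.3 and 22.0 CPM in the knock-in libraries. Every knock-in library was above every wild-type library, and wild-type replicate 1 was the lowest. The log2 fold change was 0.52 ± 0.13 (SE), with a 95% interval of 0.24 to 0.80, an unadjusted p of 0.002 and an edgeR adjusted p of 0.073. The gene was called in 8 of 20 alternatives, among them DESeq2 and the reported test read at an adjusted p of 0.10. Its value was 0.38 without wild-type replicate 1. Over all 20 alternatives its adjusted p ran from 0.0026 to 0.9995, the highest with brainstem marker level as covariate. That level was higher in every knock-in library than in every wild-type library, so the fit could tell it from genotype only in part. No other transcript matched its transcript at 90% identity or more over 100 bases.

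The HSP110 genes, which act as nucleotide exchange factors for HSP70, had lower means in knock-in. Hspa4 had 311, 302 and 291 CPM in the wild-type libraries and 263, 279 and 246 CPM in the knock-in libraries. The groups did not overlap, the log2 fold change was -0.20 ± 0.08 (SE), and the edgeR adjusted p was 0.21. Hspa4l, at 368 ± 22.0 CPM in wild type and 326 ± 22.5 CPM in knock-in (mean ± SD, n = 3 each), and Hsph1, at 158 ± 4.51 CPM in wild type and 145 ± 1.42 CPM in knock-in, had log2 fold changes of -0.17 and -0.12. Their adjusted p were 0.30 and 0.41 in edgeR.

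The cytosolic HSP90 genes differed little. Hsp90ab1 had 1439, 1584 and 1490.3 CPM in the wild-type libraries and 1428, 1424 and 1418 CPM in the knock-in libraries. The 3 knock-in libraries had an SD of 4.69 CPM and lay just under the lowest wild-type library. The log2 fold change was -0.08 ± 0.07 (SE) with a 95% interval of -0.23 to 0.07, and Hsp90aa1 had -0.08 ± 0.07 (SE) with -0.24 to 0.08. Processed pseudogenes match both genes: the longest alignments covered 2177 bases of Hsp90ab1 at 91% identity and 2255 bases of Hsp90aa1 at 99.47%. None of those matching genes had counts enough to be tested.

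J-domain proteins deliver substrates to HSP70 and start its ATP cycle. Dnajb1, the heat-inducible partner, had 48.0, 53.8 and 51.1 CPM in the wild-type libraries and 55.1, 61.7 and 60.9 CPM in the knock-in libraries. No library of one group overlapped the other, with a log2 fold change of 0.22 ± 0.08 (SE), an unadjusted p of 0.026 and an edgeR adjusted p of 0.21. Dnajb2 and Dnajb6 are both known to keep polyglutamine proteins soluble. Dnajb2, the most abundant of the 4 per kilobase, had 136, 153 and 151 CPM in the wild-type libraries and 142, 144 and 146 CPM in the knock-in libraries. Its groups overlapped, at a log2 fold change of -0.03 ± 0.08 (SE). Dnajb6 was at 73.3 ± 3.58 CPM in wild type and 69.1 ± 0.98 CPM in knock-in. Its log2 fold change was -0.09 ± 0.08 (SE), with an edgeR adjusted p of 0.59, and that of Dnaja1 was 0.02 ± 0.07 (SE). Other genes match 47.3% of the Dnajb6 transcript and 32.1% of the Dnaja1 transcript at 90% identity or more, so both counts are uncertain.

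Small heat shock proteins hold unfolded proteins without ATP. Hspb1, which encodes the mouse homologue of HSP27, had 4.88, 5.46 and 5.66 CPM in the wild-type libraries and 6.58, 6.75 and 6.52 CPM in the knock-in libraries. All knock-in libraries were above all wild-type libraries, the log2 fold change was 0.31 ± 0.13 (SE) and the edgeR adjusted p was 0.24. With offsets for GC content and length the log2 fold change was 0.02. A pseudogene matches 477 bases of the transcript at 99.79% identity, so the count is uncertain. Cryab, the alpha-B crystallin of glia and the most abundant of the 3 per kilobase, had 103, 134 and 140.1 CPM in the wild-type libraries and 113, 116 and 119 CPM in the knock-in libraries. Wild-type replicate 1 was the lowest of all 6 and the groups overlapped (log2 fold change -0.12 ± 0.11 (SE)). Hspb8, the partner of BAG3 in selective autophagy, had -0.04 ± 0.10 (SE) and Bag3 itself 0.02 ± 0.11 (SE). An antisense overlap with Hspb2 covers 17.04% of the Cryab exon bases, and Hspb2 had 0.41 CPM in wild type.

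Hsf1, the gene of the heat shock transcription factor, had 28.2, 35.0 and 34.6 CPM in the wild-type libraries and 32.7, 39.8 and 37.8 CPM in the knock-in libraries. Its groups overlapped, with a log2 fold change of 0.17 ± 0.11 (SE); HSF1 is controlled mainly at the protein level, which counts do not show. Stub1, the ubiquitin ligase CHIP that works with HSP70 and HSP90 and is itself an ataxia gene, had 109, 135 and 139 CPM in the wild-type libraries and 131, 135 and 151 CPM in the knock-in libraries. The log2 fold change was 0.12 ± 0.10 (SE) and became -0.14 with offsets for GC content and length. Exons of Jmjd8 on the other strand cover 42.33% of the Stub1 exon bases, and the sources used here do not give the strand setting of the counting, which leaves the Stub1 count uncertain.

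**Figure D3:**
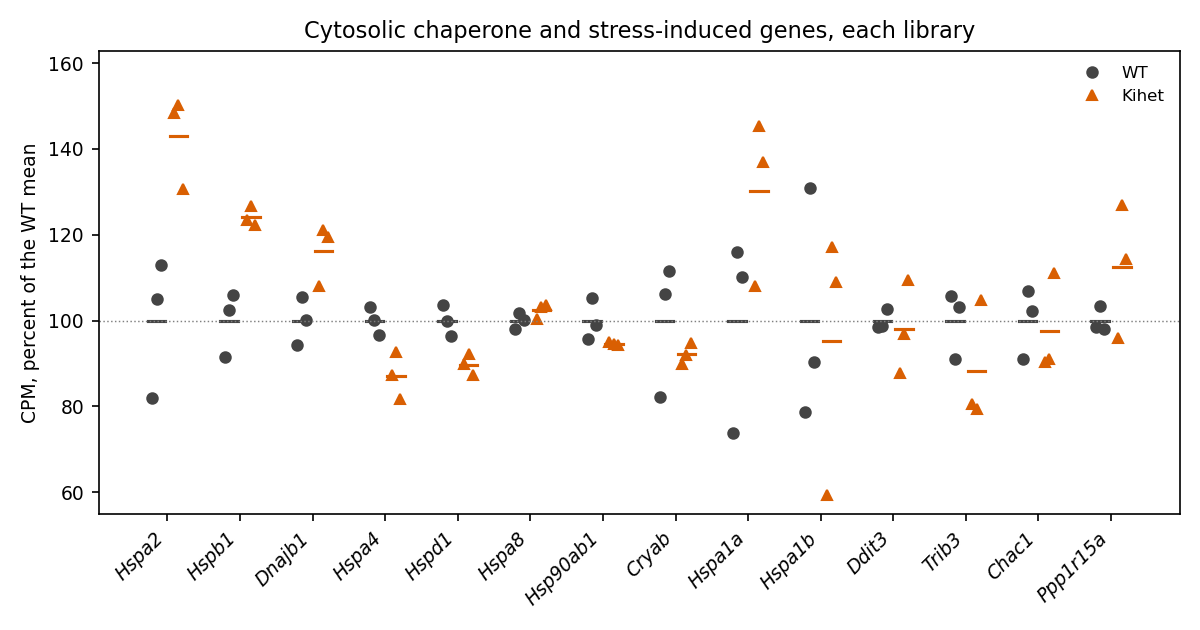
CPM of cytosolic and mitochondrial chaperone genes and of stress-induced genes in each library, as a percentage of the wild-type mean. Circles are wild-type and triangles knock-in libraries, and bars are group means. Knock-in means are 143% for Hspa2, 124.1% for Hspb1 and 116.2% for Dnajb1, while Ddit3 and Chac1 lie at 98.1% and 97.4% with overlapping groups.

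The mitochondrial chaperonin HSP60 and its lid HSP10 are encoded head to head by Hspd1 and Hspe1 from 1 shared promoter. Their windows hold the same 3 overlapping heat shock element words, printed as reverse complements because each is read on each gene's own strand (RefSeq, GRCm38.p6, elements in capitals):
Hspd1, chr1:55088039-55088096, minus strand: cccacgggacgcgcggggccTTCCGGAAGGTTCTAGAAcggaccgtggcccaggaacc
Hspe1, chr1:55088039-55088096, plus strand: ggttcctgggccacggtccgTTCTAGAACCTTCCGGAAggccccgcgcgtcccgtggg
Hspd1 had 148, 143 and 138 CPM in the wild-type libraries and 128, 132 and 125 CPM in the knock-in libraries. Hspe1 had 77.2, 66.8 and 68.8 CPM in the wild-type libraries and 71.9, 63.4 and 84.6 CPM in the knock-in libraries. The Hspd1 groups did not overlap while those of Hspe1 did, with knock-in replicate 3 the highest of all 6. The log2 fold changes were -0.16 ± 0.07 (SE) and 0.05 ± 0.11 (SE), with edgeR adjusted p of 0.29 and 0.86, and the difference between the genes was not tested. Near-identical pseudogenes match both (98.95% identity over 1722 bases of Hspd1), which makes their counts uncertain.

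Of the 7 ER folding genes, 6 had lower estimates in knock-in, 5 had groups that did not overlap, and 4 had an unadjusted p under 0.05, all lower. The corresponding shares of all genes tested are the 11.5% and 8.26% given above. The median log2 fold change was -0.20 and none was called over all genes. By the RefSeq sequences, 5 of the 7 carry the same element before their start, the ER stress response element ERSE, bound by ATF6 with the factor NF-Y. It was searched as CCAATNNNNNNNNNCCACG on both strands in the 250 bases before the RefSeq start, and was found in 35 of 27025 genes (0.13%). The windows are shown because the element is shared by 5 of the 7 genes in the role group with the most members at an unadjusted p under 0.05. They come from RefSeq on GRCm38.p6, 5′ to 3′ on the gene's strand, with the element in capitals:
Hspa5, chr2:34771840-34772089, plus strand: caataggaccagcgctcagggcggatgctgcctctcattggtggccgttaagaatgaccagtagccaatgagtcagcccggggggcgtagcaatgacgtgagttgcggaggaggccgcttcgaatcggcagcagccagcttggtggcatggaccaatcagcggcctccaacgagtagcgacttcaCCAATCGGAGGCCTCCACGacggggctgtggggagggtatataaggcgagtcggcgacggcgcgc
Hsp90b1, chr10:86705445-86705694, minus strand: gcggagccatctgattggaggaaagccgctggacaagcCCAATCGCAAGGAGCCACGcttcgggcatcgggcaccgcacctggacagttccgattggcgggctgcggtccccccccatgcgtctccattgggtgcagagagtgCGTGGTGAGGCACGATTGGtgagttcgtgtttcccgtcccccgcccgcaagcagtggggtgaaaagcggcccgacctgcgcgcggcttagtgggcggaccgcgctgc
Calr, chr8:84846932-84847181, minus strand: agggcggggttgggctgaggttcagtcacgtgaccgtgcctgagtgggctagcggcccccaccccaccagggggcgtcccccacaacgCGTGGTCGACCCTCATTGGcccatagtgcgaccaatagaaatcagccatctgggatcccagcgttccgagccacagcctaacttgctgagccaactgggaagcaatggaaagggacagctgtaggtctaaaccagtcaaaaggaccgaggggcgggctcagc
Canx, chr11:50325674-50325923, minus strand: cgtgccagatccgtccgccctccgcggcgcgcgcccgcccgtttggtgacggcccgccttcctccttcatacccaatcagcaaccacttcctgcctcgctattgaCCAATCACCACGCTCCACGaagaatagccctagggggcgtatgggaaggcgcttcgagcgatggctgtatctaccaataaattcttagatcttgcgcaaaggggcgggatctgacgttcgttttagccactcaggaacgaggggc
Pdia6, chr12:17266339-17266588, plus strand: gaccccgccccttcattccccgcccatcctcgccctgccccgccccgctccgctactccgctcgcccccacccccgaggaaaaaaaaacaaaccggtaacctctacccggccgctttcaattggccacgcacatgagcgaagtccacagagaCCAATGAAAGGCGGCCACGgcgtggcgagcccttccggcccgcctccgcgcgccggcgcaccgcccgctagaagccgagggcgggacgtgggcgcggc
The Hspa5 element ends 46 bases before the start. Hsp90b1 holds 2, 1 on each strand, and Calr holds 1 on the opposite strand. All 5 genes had lower estimates in knock-in, between -0.33 and -0.17 with a median of -0.24. Among 13 other tested genes with the element, 8 had lower estimates, 2 were lower at an unadjusted p under 0.05 and the median was -0.02. Those 13 include Creld2, Derl3, Dnajc3 and Syvn1 of the ER, at log2 fold changes of 0.06, -0.37, -0.13 and 0.06. A match of letters does not show that the element is bound.

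Hsp90b1 (ENSMUSG00000020048, chr10:86690209-86705509, minus strand), which encodes the ER HSP90 protein GRP94, had 417, 438 and 391 CPM in the wild-type libraries and 315, 345 and 333 CPM in the knock-in libraries. Every knock-in library was under every wild-type library, and the log2 fold change was -0.33 ± 0.08 (SE), with a 95% interval of -0.50 to -0.16, an unadjusted p of 0.0016 and an edgeR adjusted p of 0.065. The gene was called in 8 of 20 alternatives, among them DESeq2 and the reported test read at an adjusted p of 0.10. Its adjusted p ran from 0.0044 to 0.9995. Its estimate stayed between -0.38 and -0.25 in all 20. The pseudogene 1810014B01Rik overlaps 10.29% of its exon bases on the other strand and had 3.81 CPM in wild type and 3.09 CPM in knock-in.

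Hspa5 (ENSMUSG00000026864, chr2:34771970-34777547, plus strand), the gene of the ER HSP70 protein BiP and the textbook marker of the unfolded protein response, had 356, 396 and 363 CPM in the wild-type libraries and 296, 326 and 322 CPM in the knock-in libraries. The groups did not overlap, at a log2 fold change of -0.24 ± 0.08 (SE), a 95% interval of -0.41 to -0.07 and an edgeR adjusted p of 0.15. The interval therefore lay below 0 and held no increase, although the adjusted p did not pass. Calr, the calcium-binding lectin chaperone and, per kilobase, the most abundant of the 7, had 379, 434 and 392 CPM in the wild-type libraries and 314, 342 and 351 CPM in the knock-in libraries. Its membrane-bound relative Canx had 391, 399 and 362 CPM in the wild-type libraries and 338, 339.7 and 327 CPM in the knock-in libraries. Neither pair of groups overlapped, and the log2 fold changes were -0.26 ± 0.08 (SE) and -0.20 ± 0.07 (SE), with edgeR adjusted p of 0.14 and 0.19.

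The protein disulfide isomerase genes Pdia4 and Pdia6 were at 44.0 ± 4.29 CPM in wild type and 38.9 ± 0.836 CPM in knock-in, and at 108 ± 12.8 CPM in wild type and 95.5 ± 4.53 CPM in knock-in (n = 3 each). Their log2 fold changes were -0.18 ± 0.09 (SE) and -0.17 ± 0.10 (SE), with edgeR adjusted p of 0.33 and 0.37. Without wild-type replicate 2 they were -0.103 and -0.081. The Pdia4 groups did not overlap and the Pdia6 groups did. Dnajb9, a J-domain partner of BiP that represses IRE1 and is itself an XBP1 target, did not share the lower values. It had 45.4, 41.7 and 41.2 CPM in the wild-type libraries and 45.8, 42.5 and 41.0 CPM in the knock-in libraries, with a log2 fold change of 0.01 ± 0.08 (SE) and a 95% interval of -0.17 to 0.19.

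Summed over the 7 ER folding genes, wild-type libraries held 1724, 1879.6 and 1698 CPM and knock-in libraries 1439.6, 1529.9 and 1512 CPM. The knock-in libraries lay close together under the lowest wild-type library, and wild-type replicate 2 was the highest. Without wild-type replicate 2 or without knock-in replicate 1, 1 of the 7 genes was at an unadjusted p under 0.05 in place of 4. The median was then -0.17 and -0.19. The median was -0.12 with library size scaling. With brainstem marker level as covariate it was -0.25 and no gene was at an unadjusted p under 0.05. That level was higher in every knock-in library than in every wild-type library, nearest at 1.16 against 0.95 in replicate 2 of each. The fit could therefore tell it from genotype only in part, and the cause of the loss of small p-values was not tested.

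**Figure D4:**
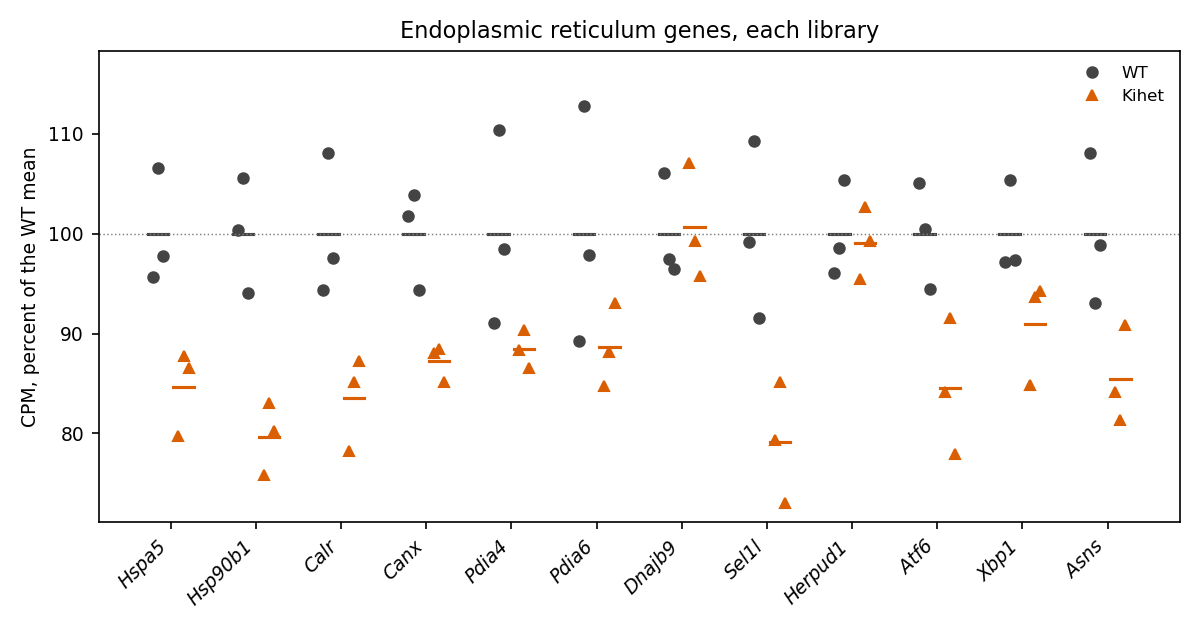
CPM of ER folding, ER degradation, sensor and Asns genes in each library, as a percentage of the wild-type mean. Circles are wild-type and triangles knock-in libraries, and bars are group means. Knock-in means lie at 79.7% for Hsp90b1, 79.2% for Sel1l and 84.7% for Hspa5, and at 100.7% for Dnajb9 and 99.1% for Herpud1.

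ER-associated degradation exports misfolded proteins to the proteasome. Sel1l (ENSMUSG00000020964, chr12:91806043-91849157, minus strand), which encodes the adaptor of the ubiquitin ligase HRD1, had 244, 269 and 225 CPM in the wild-type libraries and 195, 209.6 and 179.9 CPM in the knock-in libraries. All knock-in libraries were under all wild-type libraries, at a log2 fold change of -0.34 ± 0.09 (SE), with a 95% interval of -0.54 to -0.14, an unadjusted p of 0.0037 and an edgeR adjusted p of 0.094. It was called in 6 of 20 alternatives, among them DESeq2 and the reported test read at an adjusted p of 0.10. Its adjusted p ran from 0.0036 to 0.9995. Herpud1, a strongly ER stress-induced component of the same ligase complex and the more abundant of the 2 per kilobase, had 99.5, 102 and 109 CPM in the wild-type libraries and 98.9, 106 and 103 CPM in the knock-in libraries. Its groups overlapped, with a log2 fold change of -0.01 ± 0.08 (SE) and a 95% interval of -0.18 to 0.16. Its promoter holds a related element, ERSE-II, which was found in 10 of 27025 genes.

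Of the 3 sensors, Atf6, whose protein is cut in the Golgi to free a transcription factor, had 103, 98.5 and 92.5 CPM in the wild-type libraries and 82.5, 89.7 and 76.3 CPM in the knock-in libraries. The groups did not overlap, with a log2 fold change of -0.24 ± 0.09 (SE) and an edgeR adjusted p of 0.18. Ern1, which encodes IRE1, was at -0.05 ± 0.11 (SE) and Eif2ak3, which encodes PERK, at 0.04 ± 0.10 (SE), with 95% intervals of -0.28 to 0.19 and -0.19 to 0.26. Xbp1, the substrate of IRE1 and the most abundant of the 4 per kilobase, had 139, 151 and 139.6 CPM in the wild-type libraries and 122, 134 and 135 CPM in the knock-in libraries. Its groups did not overlap, at a log2 fold change of -0.14 ± 0.08 (SE) and an edgeR adjusted p of 0.39. Sensors act through cleavage, splicing and phosphorylation, and counts per gene do not separate spliced from unspliced Xbp1.

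The integrated stress response genes had 1 of 8 members at an unadjusted p under 0.05 and a median log2 fold change of -0.04. Atf4, its central transcription factor and the most abundant of the 8 per kilobase, had 213, 199.6 and 206 CPM in the wild-type libraries and 179, 213 and 207 CPM in the knock-in libraries. The lowest value was that of knock-in replicate 1, and the groups overlapped. Ddit3, which encodes the death-linked factor CHOP, had 21.1, 21.1 and 22.0 CPM in the wild-type libraries and 18.8, 20.8 and 23.4 CPM in the knock-in libraries. Its log2 fold change was -0.03 ± 0.10 (SE), with a 95% interval of -0.25 to 0.20, so the interval held no change as large as 1.5-fold. Trib3, a pseudokinase induced by CHOP, was at 2.15 ± 0.17 CPM in wild type and 1.90 ± 0.31 CPM in knock-in. Chac1, a glutathione-degrading enzyme induced by ATF4, was at 10.1 ± 0.829 CPM in wild type and 9.88 ± 1.19 CPM in knock-in, and Atf3 at 2.11 ± 0.405 CPM in wild type and 2.1 ± 0.485 CPM in knock-in (n = 3 each). Atf5 and Ppp1r15a, the latter encoding a phosphatase subunit that ends the response, had log2 fold changes of -0.05 ± 0.11 (SE) and 0.17 ± 0.11 (SE). Adjusted p of these 7 genes, Atf4 and Ddit3 included, ran from 0.45 to 0.998 in edgeR.

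Asns, asparagine synthetase and a direct ATF4 target, had a lower mean in knock-in. It had 156, 134 and 143 CPM in the wild-type libraries and 121, 117 and 131 CPM in the knock-in libraries, and all knock-in libraries were under all wild-type libraries. The log2 fold change was -0.23 ± 0.08 (SE) with an unadjusted p of 0.021 and an edgeR adjusted p of 0.19. The composite site CARE, to which ATF4 binds with C/EBP proteins, was searched as TGATGNAA on both strands and was found in 3.91% of the 27025 genes and in 4 members. The matches are shown to set Asns beside 3 members that carry the same word (RefSeq, GRCm38.p6, the word in capitals, on the gene's strand):
Asns, chr6:7693210-7693252, minus strand: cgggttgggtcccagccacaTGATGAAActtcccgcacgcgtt
Chac1, chr2:119351029-119351076, plus strand: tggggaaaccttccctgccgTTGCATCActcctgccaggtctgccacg
Atf3, chr1:191183416-191183463, minus strand: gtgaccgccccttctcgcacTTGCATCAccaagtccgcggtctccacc
Herpud1, chr8:94386297-94386344, plus strand: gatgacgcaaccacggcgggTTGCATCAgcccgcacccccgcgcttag
The word is reversed in Chac1, Atf3 and Herpud1. Their log2 fold changes were -0.04, 0.00 and -0.01, against -0.23 for Asns, and only the Asns groups did not overlap. The median over 305 other tested genes with the word was 0.02.

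Genes that work beside the members were taken from 7 lists, of which 227 genes that are no members were tested. Beside a share of 1.9% called over all genes tested, 1 of these 227 was called, Slc7a11. It encodes the cystine-glutamate exchanger, which ATF4 and NRF2 induce, and had 24.1, 22.6 and 23.7 CPM in the wild-type libraries and 16.8, 17.3 and 12.9 CPM in the knock-in libraries, a log2 fold change of -0.59 ± 0.12 (SE) and an edgeR adjusted p of 0.039. It was called in 14 of 20 alternatives, the reported test read at an adjusted p of 0.10 among them. Without each of wild-type replicates 1, 2 and 3 and knock-in replicates 1 and 3 it was not (adjusted p from 0.091 to 0.13). Nor was it called with brainstem marker level as covariate (adjusted p 0.9995), a level that separates the groups. Of the 62 tested genes of the integrated stress response list, 13 were lower and 4 higher at an unadjusted p under 0.05, with a median of -0.10. The shares of all genes tested were 8.26% and 9.81%. The 13 lower genes include Stc2 at -0.65, Vldlr at -0.30 and Sesn2 at -0.28. Among the 4 higher genes was Eif2ak2 at 0.66 ± 0.22 (SE), the double-stranded RNA kinase PKR, which interferon induces. Its groups overlapped, with 9.96, 8.88 and 8.11 CPM in the wild-type libraries and 19.2, 14.1 and 9.19 CPM in the knock-in libraries. The edgeR adjusted p of Eif2ak2 was 0.16. The rest of the 4 were Avil at 0.99, Bbc3 at 0.56 and Psat1 at 0.19, whose groups did not overlap. The genes named here were picked from that list after their values were seen.

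Of 51 further ER folding genes, 6 were lower and 2 higher at an unadjusted p under 0.05. The shares of all genes tested were 8.26% and 9.81%, and the median of the 51 was -0.035. The lowest p was that of Uggt1, the glucosyltransferase that returns misfolded glycoproteins to calnexin, at 77.6 ± 5.45 CPM in wild type and 61.6 ± 8.02 CPM in knock-in (a log2 fold change of -0.33 ± 0.10 (SE), edgeR adjusted p 0.14). The most abundant per kilobase was Selenom, whose groups overlapped, at a log2 fold change of 0.30, or 0.166 without knock-in replicate 3. The 27 further ER degradation genes had 1 higher and none lower, with a median of -0.05. Aup1, which had the smallest p of them, was at a log2 fold change of 0.27. The 19 unfolded protein response regulators had 3 higher and none lower, with Bax, the pore-forming apoptosis effector, at 0.40 ± 0.11 (SE) and an edgeR adjusted p of 0.11, and Tmbim6 at 0.21, or 0.088 without wild-type replicate 1.

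Of 40 further cytosolic chaperones and co-chaperones, 5 had lower and 3 had higher estimates at an unadjusted p under 0.05. The shares of all genes tested were 8.26% and 9.81%, and the median of the 40 was -0.003. Hspa12a, a distant HSP70 relative, was at 180.3 ± 6.31 CPM in wild type and 146 ± 7.87 CPM in knock-in (a log2 fold change of -0.31 ± 0.08 (SE), edgeR adjusted p 0.073), and Stip1, which links HSP70 to HSP90, at -0.04. The 15 subunits of the chaperonin TRiC and of prefoldin had none at an unadjusted p under 0.05 and a median of 0.035, with Pfdn5 at 0.05 and Pdcl3 at 0.12. The 16 mitochondrial chaperones and proteases had 1 lower and 4 higher. Hspa9, the mitochondrial HSP70, was at -0.18, and Spg7, a protease subunit and ataxia gene, at 0.28.

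Markers of Purkinje cells and of Bergmann glia and astrocytes were lower in knock-in beside the ER genes, and their part in these values was not tested. Of 13 Purkinje cell markers 7 were called lower and 0 higher, and their summed level was 15338 to 17186 CPM in wild type and 10256 to 12193 CPM in knock-in. The mean log2 CPM of these markers lay between 9.57 and 9.68 in wild type and between 9.01 and 9.23 in knock-in, lowest in knock-in replicate 1. The ER folding genes were lowest in that library too, at 7.22 against 7.25 and 7.27 in knock-in replicates 3 and 2. In wild type the orders differed: the Purkinje markers were highest in replicate 1, at 9.68, and the ER folding genes in replicate 2, at 7.53 against 7.40 and 7.39. Of 10 Bergmann glia and astrocyte markers 3 were called lower, and they summed to between 5348 and 5439.6 CPM in wild type and between 4182 and 4666 CPM in knock-in. Of 10 granule neuron markers 1 was called lower (summed level 5226 to 5779 CPM and 4235 to 5060.4 CPM), and the mean log2 CPM of that list overlapped between the groups, at 8.51 to 8.68 in wild type and 8.29 to 8.60 in knock-in. No marker of these 3 lists was at 0. Other glia did not share the lower values. Of 10 oligodendrocyte markers 7 had higher and 3 lower estimates, with 1 called in each direction. Of 10 microglia markers 7 had higher and 3 lower estimates, with none called. The median log2 fold changes were 0.082 and 0.057. Lower estimates were not limited to Purkinje cells and astroglia. Of the 10 granule neuron markers 9 had lower estimates. Of 10 endothelial and pericyte markers 8 had lower and 2 higher estimates, with none called and a median of -0.166. All 5 blood markers and all 10 choroid plexus markers had lower estimates, with none called.

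Immediate early genes, which neuronal activity and handling of tissue induce within minutes, were highest in knock-in replicate 2 at a mean log2 CPM of 4.07. The other 5 libraries lay between 2.95 and 3.54. None of the 11 tested was called. Of these 11, 10 had higher and 1 a lower estimate in knock-in, with 2 higher at an unadjusted p under 0.05. Their median log2 fold change was 0.411. Of the 12 listed genes, Egr2 was at 0 in 1 library. The summed level of the 12 genes was 162 to 222 CPM in wild type and 174 to 291 CPM in knock-in. Among the wild-type libraries they were highest in replicate 2. Of the 42 members, 25 were highest in replicate 2 within knock-in, 22 within wild type and 15 within both. The shares over all genes tested were not counted, so these counts have no background beside them. Samples with the same number are not known to be paired. The 15 members include heat-inducible Hspa1a, Hspa1b and Dnajb1 and, of the ER genes, Hspa5, Hsp90b1, Canx and Sel1l, named after their values were seen. The part of handling in these levels was not tested.

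**Figure D5:**
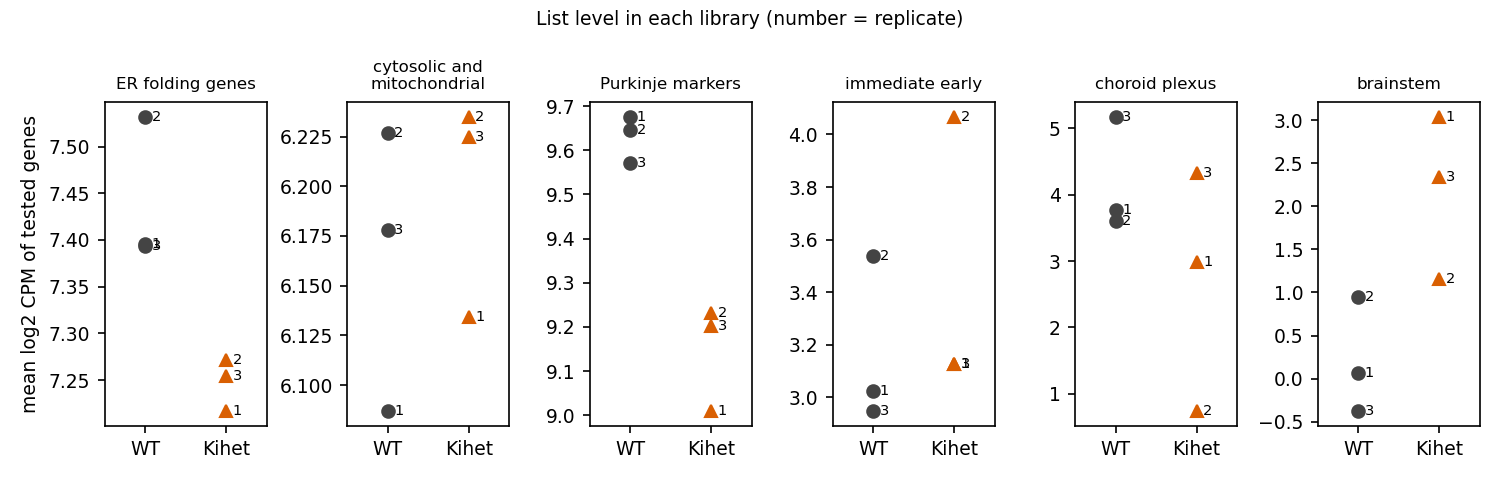
Mean log2 CPM of the tested genes of 6 lists in each library, with wild type as circles, knock-in as triangles and the replicate number beside each point. Each panel has its own vertical scale. ER folding genes and Purkinje cell markers are lower in all knock-in libraries than in all wild-type libraries, the chaperone genes overlap, and immediate early genes are highest in knock-in replicate 2.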

How the data were processed

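Bulk RNA sequencing of 6 cerebellum samples gave the data. The authors deposited whole-number read counts for each Ensembl gene. The submitters' processing notes name Bowtie2 2.1.0, TopHat2 2.0.14, HTSeq 0.6.1 and bcl2fastq 2.17.1.14, and build mm10. Libraries from frozen tissue were stranded and selected for polyadenylated RNA, per the labels' protocols. Annotation release and strand setting: not given in the sources used here. GENCODE M21 matched 48349 of 48709 identifiers.

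Knock-in was compared with wild type in R 4.3.3 with edgeR 4.0.16: filterByExpr (minimum count 10, minimum total 15), scaling by TMM, a quasi-likelihood F test for genotype with no other term, and Benjamini-Hochberg adjustment over 16699 genes. Calls were made at an adjusted p of 0.05 or less. The standard error is the absolute log2 fold change over the square root of F. Adjusted p and p in the text are from this test unless another tool is named. The steps were tested on simulated data. Library totals ran from 34630391 to 49127673, and the common biological coefficient of variation was 0.115, which limits precision more than depth does for all but the lowest genes.

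Replicates differed beyond sampling noise, with a chi-square per degree of freedom of at least 14.08, so all 6 were kept. Alternatives were other scalings and filters, DESeq2 1.42.0, limma-voom (limma 3.58.1), a replicate block, GC and length offsets (mgcv 1.9.3), a brainstem marker covariate and leaving out each sample. Robust estimation and the reported test read at an adjusted p of 0.10 were counted as alternatives too. Promoter words were searched in the 250 bases before the RefSeq start (GRCm38.p6), and near-identical genes with blastn 2.17.0 at 90% identity over 100 bases. Protein sequences were not used here.

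All 42 members are named. Values in every sample are given for members at an unadjusted p under 0.05, for those without overlap at an absolute log2 fold change of at least 0.3, for the most abundant member of each role, and for some others. From each neighbouring list the text names every gene called or, failing that, the gene most abundant per kilobase and the one with the smallest p. One gene that this rule names is not reported here. The members and lists were chosen with earlier results of these data known.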

Additional observations from a re-analysis of the deposited data

How the results depend on the processing

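Each of 20 alternatives was run on all genes. Of 840 values of the 42 members, 33 passed the threshold of their alternative where the reported test did not. Of these 33, 3 were the reported test itself, read at an adjusted p of 0.10. The sign was opposite to the reported one in 53 values of 16 members, and 26 members kept 1 sign in all 20. Of these 16, all but Stub1 had a reported estimate within 1 standard error of 0. Stub1 was at -0.135 with GC and length offsets, with or without the block. The number of members called, 0 in the reported test, was 1 with library size scaling, 2 with upper quartile scaling and 3 with no filter, with DESeq2, with voom quality weights and at an adjusted p of 0.10. Calls over all genes were more in each too: 513, 428, 1303, 934, 746 and 721 in that order, against 318. Leaving out 1 library gave 0 to 2 members called, 5 to 11 members at an unadjusted p under 0.05 (11 with all 6), and medians from -0.064 to 0.017 for the chaperone genes and from -0.170 to -0.081 for the ER stress genes. The 2 calls came without knock-in replicate 2, where 858 genes of all tested were called. The chaperone median was 0.049 with library size scaling and -0.073 with GC and length offsets, and the ER stress median was -0.063 with library size scaling. With the brainstem marker covariate 1 member was at an unadjusted p under 0.05 and 2 genes of all tested were called. This covariate was higher in every knock-in library than in every wild-type library, so its fit could tell it from genotype only in part. Neighbouring genes called were 1 in the reported test, 2 with library size scaling, 13 with no filter, 7 with DESeq2, 3 with voom quality weights and at an adjusted p of 0.10, 4 with GC and length offsets, 0 with the brainstem covariate and 0 to 6 when 1 library was left out. The causes were not tested.

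Samples with the same replicate number deviated together weakly, with correlations of 0.001, 0.174 and 0.318. Pairs of different number ran from -0.291 to 0.103, and not every sample correlated best with its own number. With 3 samples in each group these values cannot tell whether a shared number marks a batch. With the replicate block 10 members, 30 neighbouring genes and 2034 genes of all tested (318 without it) were called, and 17 members were at an unadjusted p under 0.05. With the replicate block and GC and length offsets together, 6 members and 20 neighbouring genes were called, with 1439 genes of all tested, 20 members were at an unadjusted p under 0.05 and the median log2 fold change of the chaperone members was -0.071. Depth limits Hspa1a, Hspa1b, Atf3 and Trib3, each under 3 CPM.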
